A study of Mus musculus with 6 samples.

Results

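The 10 genes described here encode secreted glycoproteins of the extracellular matrix: Fn1, Thbs1, Thbs2, Sparc, Tnc, Postn, Nid1, Nid2, Fbn1 and Mgp. They were listed by name with earlier results of these data known, and all 10 were found by Ensembl identifier among the 56953 genes of the table. RNA was sequenced from 6 cultured mouse pancreatic ductal adenocarcinoma (PDAC) lines with 1 library each, and the lines are KPC469, KPC142, KPC180, KPC850, KPC490 and KPC630. KPC is the usual name of a genetically engineered mouse model of this cancer, and the labels list no alleles, treatment, passage or age. The study asked how such lines differ in the CD8+ T cell infiltration they induce, but the labels do not say which line falls in which class, so each line is described by its own values.

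Matrix glycoproteins fill the space around cells and link collagen, laminin and cell-surface receptors. Fibronectin (Fn1) forms adhesive fibrils that cells bind through integrins, nidogens (Nid1, Nid2) bridge the laminin and collagen IV networks of basement membranes, and fibrillin-1 (Fbn1) builds microfibrils that hold latent TGF-beta. Matricellular proteins, the thrombospondins (Thbs1, Thbs2), SPARC, tenascin-C (Tnc) and periostin (Postn), modulate cell-matrix contact more than they bear load. Matrix Gla protein (Mgp) inhibits calcification. In pancreatic tumours much of this matrix comes from fibroblasts, which are not part of a pure tumour cell line.

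Library totals ran between 16471558 and 18701274 counts. Levels are given in CPM, counts scaled to a TMM-adjusted library total, on which 1 count was worth 0.0532 to 0.0607 CPM. With 1 library per line, intervals cover counting error only and the spread between cultures of a line is unknown. In bulk RNA, fewer cells of a type and less RNA per cell cannot be told apart. Of 8 ductal epithelial markers, Krt8, Krt18, Krt19 and Cdh1 were abundant in all 6 lines, the lowest of these levels being 298.4 CPM of Cdh1 in KPC490, and the summed level of the 8 was 2876 CPM in KPC469 against 7095 to 11860 CPM in the other lines. Of 10 fibroblast and pericyte markers, Dcn, Lum and Thy1 had 0 counts in every line and 6 of the 10 stayed under 1 CPM, with summed levels between 0.987 CPM in KPC490 and 23.1 CPM in KPC630, where Acta2 made up 21.6 CPM. Of 5 endothelial markers the highest was Kdr, at 2.50 CPM, and of 6 leukocyte markers Cd68, at 3.78 CPM.

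Start-site sequences were matched for 6 of the 10 genes, in 8 windows of 300 bases (250 before to 50 after a start), from RefSeq on GRCm38.p6, while the counts were made on GRCm39. Those of Sparc, Tnc, Postn and Nid1 are shown because these genes span the levels of the 6, with CpG dinucleotides in capitals. Fn1 and Thbs1, which reached higher levels than Nid1, had no window, nor had Mgp and Nid2. They lie at chr11:55420031-55420330 on the minus strand (Sparc), chr4:64046887-64047186 on the minus strand (Tnc), chr3:54360857-54361156 on the plus strand (Postn) and chr13:13437352-13437651 on the plus strand (Nid1).
Sparc: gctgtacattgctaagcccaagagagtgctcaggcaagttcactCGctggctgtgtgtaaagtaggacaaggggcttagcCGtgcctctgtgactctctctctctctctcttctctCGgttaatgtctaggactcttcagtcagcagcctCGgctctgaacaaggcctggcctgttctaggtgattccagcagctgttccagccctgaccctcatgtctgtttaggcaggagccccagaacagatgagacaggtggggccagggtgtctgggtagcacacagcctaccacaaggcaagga
Tnc: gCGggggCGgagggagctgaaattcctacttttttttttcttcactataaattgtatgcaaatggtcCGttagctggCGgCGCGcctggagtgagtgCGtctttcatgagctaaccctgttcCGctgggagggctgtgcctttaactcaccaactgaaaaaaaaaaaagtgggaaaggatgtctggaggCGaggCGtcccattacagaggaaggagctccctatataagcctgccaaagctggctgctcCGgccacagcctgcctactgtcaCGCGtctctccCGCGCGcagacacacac
Postn: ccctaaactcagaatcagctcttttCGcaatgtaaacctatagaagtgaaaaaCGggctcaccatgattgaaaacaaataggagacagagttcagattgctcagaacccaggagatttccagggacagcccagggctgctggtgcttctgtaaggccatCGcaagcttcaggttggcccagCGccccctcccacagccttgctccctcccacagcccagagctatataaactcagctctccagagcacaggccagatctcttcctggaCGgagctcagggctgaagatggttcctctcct
Nid1: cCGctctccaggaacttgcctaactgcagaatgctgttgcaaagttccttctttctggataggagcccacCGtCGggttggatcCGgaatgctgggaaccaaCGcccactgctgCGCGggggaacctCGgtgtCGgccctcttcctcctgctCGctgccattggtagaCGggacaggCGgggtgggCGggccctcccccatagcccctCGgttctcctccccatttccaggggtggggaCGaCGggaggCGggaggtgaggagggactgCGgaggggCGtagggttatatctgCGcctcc

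Nid1, abundant in all 6 lines, had 20 CpG dinucleotides in its window, and the median over the 32851 windows of the table was 7. The shown Tnc window had 16 and the Fbn1 window 14, and both genes stayed under 14 CPM. Sparc and Thbs2 had 4 each and the shown Postn window 5, yet Sparc was detected in every line, Thbs2 in 5 and Postn in 1. The TATA motif TATAAA, searched on both strands, was found in 4 of the 8 windows and in 13.6% of all windows. Both Tnc windows are among the 4, beside that of Thbs2 and the shown one of Postn. The Tnc windows overlap and hold the same site, which is thus counted more than once. The TEAD motif CATTCC was found in 1, that of Nid1, and in 14.7% of all windows, and the AP-1 motif TGANTCA in 0 of the 8 and in 7.81% of all. These letters describe the windows and show no binding.

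The adhesive glycoprotein gene Fn1 (ENSMUSG00000026193, chromosome 1) had 2567 CPM in KPC469, 615.5 in KPC180, 578.6 in KPC630, 464.1 in KPC490, 285.0 in KPC142 and 279.5 in KPC850. KPC469 stood alone at the top, and the other 5 lines ranged 2.20-fold. The ratio of KPC469 to KPC850 was 9.19 (95% interval 8.92 to 9.46), and that of KPC469 to the next line, KPC180, was 4.17 (4.08 to 4.26). The 2 lowest lines, KPC142 and KPC850, did not differ beyond counting error, at a ratio of 1.02 (0.979 to 1.06). By counts, Fn1 was the 18th most abundant gene of the KPC469 library and between 206th and 608th in the others. It made up 0.255% of all counts in KPC469 (Clopper-Pearson 0.253% to 0.257%) and 0.0280% to 0.0607% in the other lines.

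Thbs1 (ENSMUSG00000040152, chromosome 2) encodes thrombospondin-1, which inhibits angiogenesis, binds CD47 and can activate latent TGF-beta. Its level was 633.3 CPM in KPC469, 167.7 in KPC630, 119.8 in KPC180, 50.7 in KPC142, 36.5 in KPC490 and 19 in KPC850. Every step in this order exceeded counting error, and KPC469 was 33.3 times KPC850 (29.8 to 37.3) and 3.78 times KPC630 (3.63 to 3.93). Thbs1 and Fn1 had the most alike patterns of any 2 of the 7 genes that reached 10 CPM in a line, with a root mean square difference of 0.79 log2 units over the 6 lines once each gene was centred on its mean. Both were highest in KPC469 and lowest in KPC850, and their orders parted at 2 places. KPC490 stood above KPC142 for Fn1 and below it for Thbs1, and KPC180 stood above KPC630 for Fn1 and below it for Thbs1.

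Thbs2 (ENSMUSG00000023885, chromosome 17), the second trimeric thrombospondin gene, was scarce in every line. It had 45 counts in KPC469 (2.45 CPM), 16 in KPC490, 10 in KPC142, 2 in KPC850, 1 in KPC630 and 0 in KPC180. KPC469 was 2.64 times KPC490 (1.46 to 5.001) and at least 13.5-fold higher than KPC180, whose 0 was set to the floor of 3 counts. Thbs2 shared its highest line with Thbs1, but KPC630, second for Thbs1, had a single Thbs2 count.

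Sparc (ENSMUSG00000018593, chromosome 11) encodes a collagen-binding matricellular protein that many stromal cells secrete. It stood at 36.6 CPM in KPC469, 17.9 in KPC142, 14.99 in KPC180, 8.04 in KPC630, 5.54 in KPC850 and 1.74 in KPC490. Its highest line was again KPC469, but KPC142, low for Fn1, was second. The ratio of KPC469 to KPC490 was 21.0 (14.6 to 31.4), and that to KPC142 was 2.04 (1.78 to 2.35). KPC490 lay apart at the low end, as KPC850 had 3.18 times its level (2.09 to 4.96).

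Tnc (ENSMUSG00000028364, chromosome 4) encodes tenascin-C, a large matricellular protein of wounds and tumour stroma. Its order was unlike that of the genes above, with 13.5 CPM in KPC490, 4.47 in KPC630, 3.34 in KPC180, 2.07 in KPC469, 0.991 in KPC850 and 0.479 in KPC142. KPC490, the lowest line for Sparc, was thus the highest for Tnc, at 3.01 times KPC630 (2.34 to 3.92) and 28.1 times KPC142 (14.0 to 65.9). KPC630 and KPC180 did not differ beyond counting error (ratio 1.34, 0.942 to 1.92), nor did KPC850 and KPC142 (2.07, 0.846 to 5.53). Between Sparc and Tnc the root mean square difference was 2.52 log2 units.

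Postn (ENSMUSG00000027750, chromosome 3), the gene of the integrin ligand periostin, had 1 count in KPC850 and 0 in each of the other 5 lines. A count of 0 allows a level of up to 0.160 to 0.182 CPM in these libraries, on the floor of 3 counts, so no fold is given. Periostin is a typical product of fibroblasts. Of the 10 fibroblast and pericyte markers, 3 had 0 counts in all 6 lines, while Pdgfra, Cspg4 and Acta2 were detected in every line. Their highest levels were 2.23 CPM in KPC469, 9.09 CPM in KPC850 and 21.6 CPM in KPC630, in that order.

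The nidogen genes behaved unlike each other. Nid1 (ENSMUSG00000005397, chromosome 13) had 431.7 CPM in KPC630, 370.2 in KPC180, 340.9 in KPC850, 292.0 in KPC490, 212.1 in KPC142 and 100.6 in KPC469. Of the 9 genes with a ratio it had the smallest, and KPC469, the highest line for Fn1, Thbs1, Thbs2, Sparc and Mgp, was its lowest. KPC630 was 4.29 times KPC469 (4.08 to 4.52), and KPC142, next above KPC469, was 2.11 times it (1.99 to 2.23). Each step of the order exceeded counting error.

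Nid2 (ENSMUSG00000021806, chromosome 14) reached 26.6 CPM in KPC850 (457 counts), 2.27 in KPC490, 1.03 in KPC180 and 0.532 in KPC630, with 0 counts in KPC469 and KPC142. A single line thus held most of it. KPC850 was 11.8 times KPC490 (8.47 to 16.8) and at least 148.2-fold higher than either line at 0. In GENCODE vM21 the gene overlaps Rtraf on the opposite strand, and the strand setting of the counting is not given. Rtraf had 1388 counts in KPC142 and 1676 in KPC469, the lines with 0 Nid2 counts. It had 1546 in KPC850 and was highest in KPC630, at 2060, not where Nid2 was. The part of Rtraf reads in the Nid2 level was not tested. Opposite-strand genes that overlap Fn1, Thbs1, Tnc, Nid1 and Fbn1 had 5 counts or fewer in every library.

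Fbn1 (ENSMUSG00000027204, chromosome 2) was low throughout, with 9.05 CPM in KPC630, 3.71 in KPC469, 3.08 in KPC490, 1.38 in KPC142, 0.546 in KPC180 and 0.291 in KPC850. KPC630 was 2.44 times KPC469 (1.83 to 3.29) and 31.0 times KPC850 (13.1 to 96.9). KPC469 and KPC490 did not differ beyond counting error (1.20, 0.828 to 1.76), nor did KPC180 and KPC850 (1.87, 0.564 to 7.12). The 10 fibroblast and pericyte markers summed to 23.1 CPM in KPC630 against 0.987 to 10.3 CPM in the other lines. Of that sum Acta2 made up 21.6 CPM, while Cspg4 was lowest in KPC630, at 1 count, and Pdgfrb, Dcn, Lum, Thy1, Fap and Pdpn had 0 counts there. The part of these markers in the Fbn1 level was not tested.

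Mgp (ENSMUSG00000030218, chromosome 6) had 547 counts in KPC469, 29.8 CPM, and 0 in each of the other 5 lines. KPC469 was therefore at least 163.7-fold higher than any of them. The enzymes that carboxylate Gla proteins were detected in all lines, with Ggcx, the vitamin K-dependent carboxylase gene, between 20.4 CPM in KPC630 and 31.5 CPM in KPC142. Vkorc1, which recycles vitamin K, had 32.7 CPM in KPC469 against 11.9 to 18.9 CPM in the other lines. Beside the genes highest in KPC469, that line had the lowest summed level of ductal markers, although 1 of the 8, Sox9, was highest there at 43.4 CPM. Its fibroblast and pericyte markers summed to 7.68 CPM, below KPC630 at 23.1 and KPC850 at 10.3 CPM. Among them Pdgfrb was highest in KPC469, at 3.05 CPM against 0.0581 CPM or less elsewhere. Pdgfra was highest there too, at 2.23 CPM, with KPC180 close to it at 2.19 CPM. Acta2 was lowest in KPC469 at 0.218 CPM, and Dcn, Lum, Thy1, Fap and Pdpn had 0 counts. The part of these markers in the Mgp, Fn1 and Thbs1 levels was not tested.

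**Figure D1:**
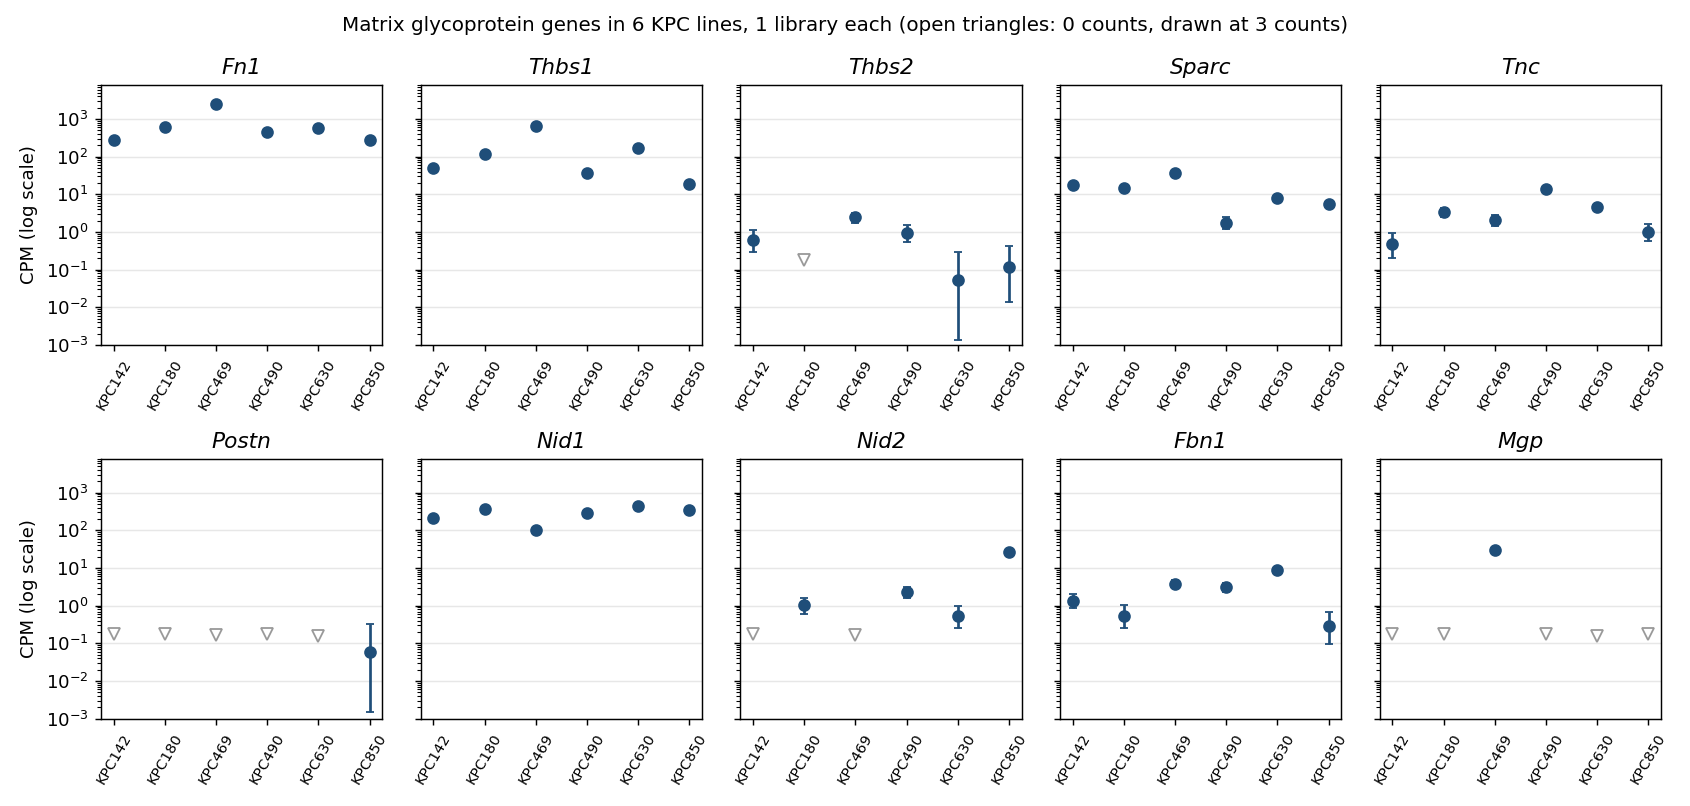
Level of each of the 10 genes (CPM, log axis) in each KPC line, 1 library per line. Points are levels with exact Poisson 95% intervals, and open triangles mark 0 counts, drawn at the floor of 3 counts. Fn1, Thbs1, Thbs2, Sparc and Mgp peak in KPC469, Tnc in KPC490, Nid1 and Fbn1 in KPC630 and Nid2 in KPC850.

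Of the 10 genes, 7 had at least 10 CPM in a line, and in all 7 of these the highest line was at least 4 times the lowest. Over all 10234 genes of the table at that level the share was 15.5%. The median ratio over the 10234 was 1.91. Tnc, Mgp and Nid2 reached this level through 1 line alone, so the filter itself favours a wide range for them, and the count over the 7 supports nothing about the 10. Of the 3 genes that reached 100 CPM, Fn1, Thbs1 and Nid1, all 3 passed 4-fold, beside 9.84% of all genes at that level. Among the genes kept by filterByExpr, which asks for about 10 counts in every line, 4 of 4 members passed, beside 13.8%. With no minimum beyond 1 count, 9 of 10 passed, beside 20.4% of 24900 genes.

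The count rests in part on KPC469. Without that line, 4 of 6 members with at least 10 CPM passed 4-fold, beside 11.5% of all genes, as Mgp had no counts left and the ratios were 2.20 for Fn1 and 2.04 for Nid1. Thbs1 still ranged 8.83-fold over the other 5 lines and Sparc 10.3-fold. The ratio of Thbs2 was at least 5.10 without KPC469. Without KPC180, its line at 0, it was 46.1 (7.85 to 1859), set against the 1 count of KPC630. Without KPC490 Tnc stayed under 10 CPM, with a ratio of 9.33, so that 6 of 6 members passed, and the ratio of Sparc was 6.60. Tnc had a ratio of 13.6 without KPC142. Without KPC630 the ratio of Nid1 was 3.68 and 6 of 7 members passed, and Fbn1 ranged 12.7-fold. Without KPC850 Nid2 stayed under 10 CPM, with a ratio of at least 12.6, and the ratios were 17.3 for Thbs1 and 16.6 for Fbn1.

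**Figure D2:**
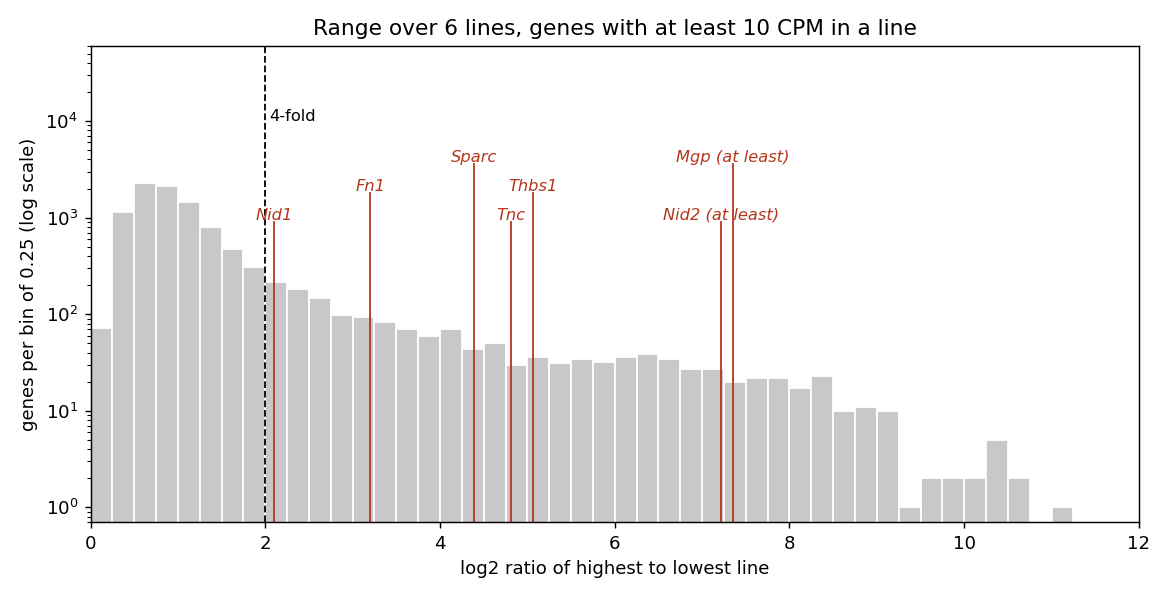
Number of genes (log axis) by log2 ratio between the extreme lines (highest over lowest), for the 10234 genes that reached 10 CPM in a line, with the 7 matrix glycoprotein genes at that level as red lines. Nid1 lies just past the dashed 4-fold mark, and Nid2 and Mgp, given as lower bounds, lie farthest to the right of the 7.

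By line, KPC469 was highest for 5 of the 10 genes and for 4 of the 7 with at least 10 CPM, beside 21.4% of all genes at that level. It was also the lowest line for Nid1. Fn1 and Mgp were at least 4-fold above the next line there, beside 0.782% of all genes, and Nid2 was so in KPC850, beside 0.176% for that line. Mgp and Nid2 had passed the level of 10 CPM through those same lines, so nothing is read from their place against these shares. KPC850 was the lowest line for Fn1, Thbs1 and Fbn1, 2 of which had at least 10 CPM in a line, beside 15.9% of all genes. Over the 7 genes, the median of log2 CPM relative to each gene's median over lines was 1.72 in KPC469, 0.33 in KPC180, 0.16 in KPC630, -0.11 in KPC490, -0.62 in KPC142 and -0.89 in KPC850. Over all genes the same median was within 0.01 of 0 in each line, which the scaling and the centring themselves favour. The 7 include Mgp, which reached 10 CPM through KPC469 alone. In KPC469 their values ran between -2.91 for Nid2 and 8.03 for Mgp, and the median there was the value of Sparc. So nothing is read from these medians. The 10 genes together took 0.335% of all counts in KPC469 and between 0.0576% in KPC142 and 0.121% in KPC630 of the others, and Fn1 alone was 76.0% of them in KPC469 and 41.5% to 57.0% elsewhere.

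To compare one gene with another, levels were divided by the length of the longest annotated transcript, between 715 bases for Mgp and 11971 for Fbn1. Per length, Fn1 was first in KPC469, KPC180 and KPC490, at 308.7, 74.0 and 55.8 CPM per kb. Nid1 was first in KPC850, at 56.0 CPM per kb with Fn1 at 33.6. In KPC630 and KPC142 the pair stood within 2% of each other per length, at Fn1-to-Nid1 ratios of 0.982 and 0.984, a gap that another choice of transcript could turn round.

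In KPC469 the same Fn1-to-Nid1 ratio was 18.7, the highest of the 6 lines. Thbs1 was second there at 108.3 CPM per kb and Mgp next at 41.7, ahead of Nid1 at 16.5 and Sparc at 15.9. The ratio of Thbs1 to Fn1 per length was 41.2% in KPC630, 35.1% in KPC469, 27.7% in KPC180, 25.3% in KPC142, 11.2% in KPC490 and 9.67% in KPC850. The short Mgp transcript thus ranked above Nid1 in KPC469 per length, although by CPM it was lower.

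**Figure D3:**
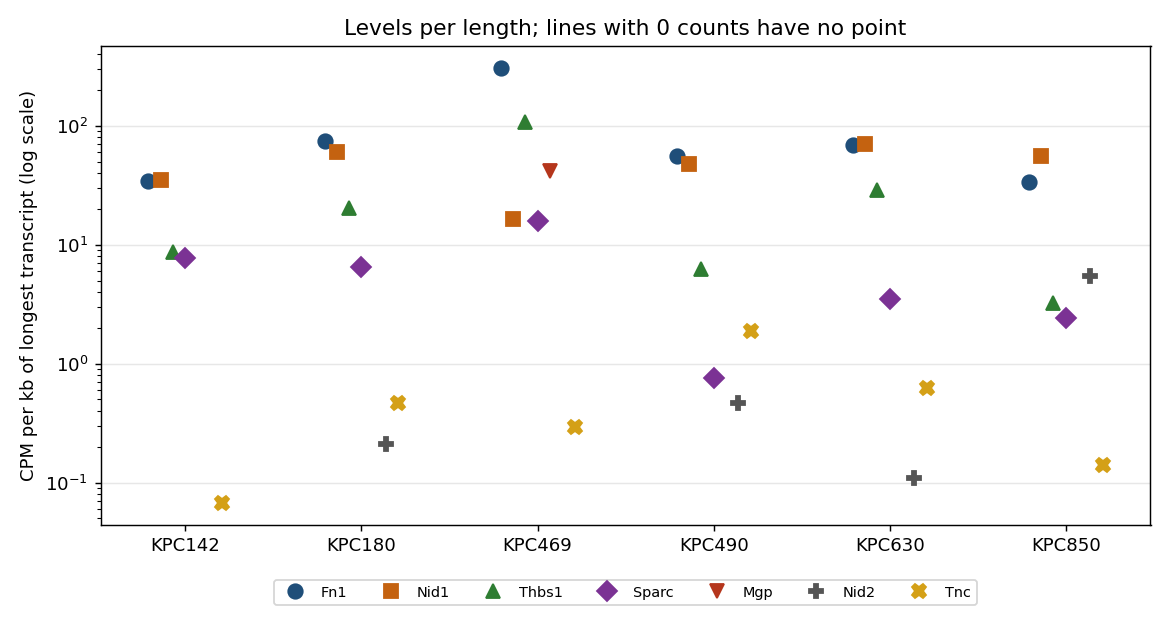
Level per length (CPM per kb of longest transcript, log axis) of 7 matrix glycoprotein genes in each line, 1 library per line. Fn1 and Nid1 lie close together in KPC142, KPC180, KPC490 and KPC630, Nid1 is above Fn1 in KPC850, and Nid1 is 18.7 times below Fn1 in KPC469.

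Of 21 other matricellular genes, 7 had at least 10 CPM in a line and 6 of these ranged at least 4-fold, with a median ratio of 9.99, beside 15.5% and 1.91 over all genes at that level. These shares over all genes are also the background of the lists that follow, and no difference between lists was tested. Spp1, the gene of osteopontin, was the most abundant by CPM, at 8760 CPM in KPC469 against 810.8 to 2727 CPM in the other lines. Ccn3, a CCN family regulator, stood at 20.6 CPM in KPC469 and at 1 count in KPC180, a ratio of 339.4 (60.5 to 13440). Fstl1, of the SPARC-related family, had 17.5 CPM in KPC469 and 0 counts in KPC180 and KPC142, at least 96.4-fold apart. Tnxb, a tenascin gene, was lowest in KPC490 at 2.033 CPM, where Tnc was highest, and reached 20.3 CPM in KPC142. KPC469 was the highest line for 3 of the 7, beside 21.4% of all genes. Ccn3 and Fstl1, and in the lists that follow Emilin2, Loxl3 and Tgfbr3, reached 10 CPM through KPC469 alone. For them the filter itself favours a wide range and that line, so nothing is read from the counts and median ratios of those lists.

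Among 29 other microfibril and basement membrane genes, 15 had at least 10 CPM in a line, 8 ranged at least 4-fold (15.5% of all genes did) and the median ratio was 5.17. KPC469 was highest for 6 of the 15, beside 21.4% of all genes. Emilin2, an elastic fibre glycoprotein gene, had 13.6 CPM in KPC469 against 0.290 to 1.54 CPM elsewhere, and Ltbp2, which binds fibrillin, 16.6 CPM in KPC469 against 0.523 CPM in KPC490. Ltbp4, which holds latent TGF-beta, had 60.5 CPM in KPC469 and 4.61 in KPC850. The fibulin gene Fbln1 went otherwise, with 46.8 CPM in KPC180, 44.8 in KPC850 and 38.5 in KPC630, and 4.24 to 10.6 CPM in the other lines.

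Of 15 receptor genes of these proteins, 10 had at least 10 CPM in a line, 3 ranged at least 4-fold and the median ratio was 2.44, beside 15.5% and 1.91 over all genes. The integrin genes Itgb3, Itgb5 and Itgb6 ranged 4.79-fold, 3.23-fold and 20.5-fold. KPC469 was lowest for Itgb3 (18.96 CPM, against 90.9 in KPC850) and Itgb6 (1.25 CPM, against 25.7 in KPC850) and highest for Itgb5 (189.2 CPM). Lrp1, an endocytic receptor that clears thrombospondin, had 262.6 CPM in KPC850 against 24.0 to 72.3 CPM elsewhere. Cd47, a thrombospondin-1 receptor gene, ranged 1.77-fold, between 156.8 CPM in KPC850 and 88.8 in KPC490.

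Of 14 genes for matrix maturation and crosslinking enzymes, 12 had at least 10 CPM in a line and 6 ranged at least 4-fold, with a median ratio of 4.05, beside 15.5% and 1.91 over all genes. Tgm2, the transglutaminase that crosslinks fibronectin among other proteins, had 94.3 CPM in KPC469 and 8.60 in KPC490. The lysyl oxidase family split: Loxl3 was highest in KPC469 (13.6 CPM, against 1.68 in KPC142), Loxl2 in KPC630 (54.2 CPM, against 8.99 in KPC142) and Loxl4 in KPC142 (148.1 CPM, against 21.0 in KPC490). KPC469 was highest for 3 of the 12, beside 21.4% of all genes.

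Among 11 TGF-beta ligands, receptors and feedback genes, 10 had at least 10 CPM in a line and 2 ranged at least 4-fold, with a median ratio of 2.69, so their share lay near the 15.5% of all genes. Tgfb3 had 32.4 CPM in KPC469 and 1.86 in KPC142, a ratio of 17.4 (12.2 to 25.9), and Tgfbr3 had 11.4 CPM in KPC469 and 0 counts in KPC490, KPC180 and KPC142. Tgfbr1 had 105.1 CPM in KPC142 and 33.9 in KPC850, a ratio of 3.10. Smad7, a feedback inhibitor of the pathway, was highest in KPC180 at 95.0 CPM, against 34.9 to 44.0 CPM in the other lines. Of the 10 genes, 4 were highest in KPC469, beside 21.4% of all genes. As many were highest in KPC180, for which no share over all genes was worked out, so nothing is read from that count.

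**Figure D4:**
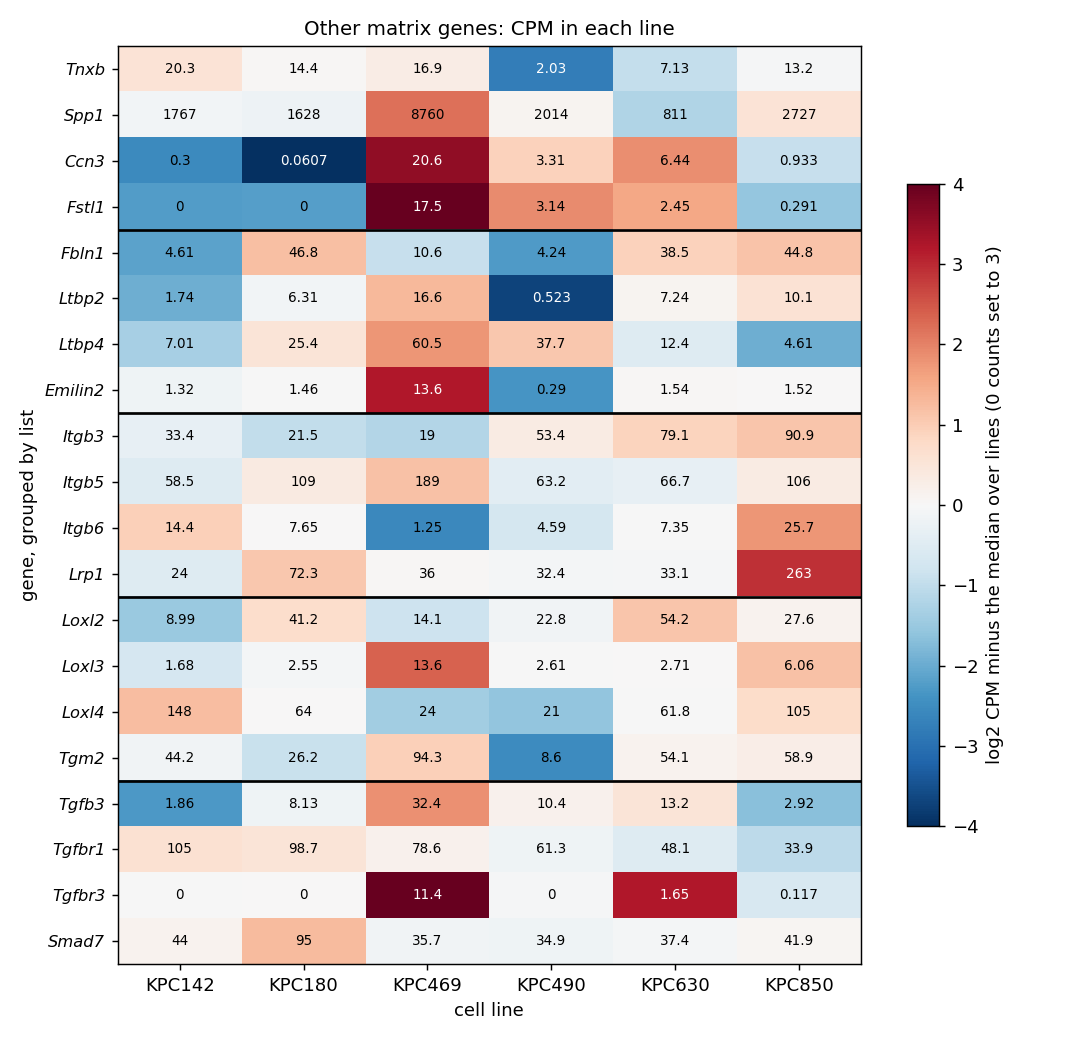
CPM of the 20 named genes of the 5 lists in each line (numbers), with colour for log2 CPM relative to the gene's median over lines, cut at 4 in either direction. From top to bottom the blocks are matricellular, microfibril and basement membrane, receptor, maturation and TGF-beta genes. Ccn3, Fstl1, Emilin2, Loxl3 and Tgfbr3 are deepest red in KPC469, and Itgb6 is blue there.

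The genes nearest in pattern to each member were ranked among the other 10233 genes that reached 10 CPM in a line, by root mean square difference of centred log2 CPM over the 6 lines. With 6 points and so many genes, near matches are easy to find, and the values are descriptions. Nearest to Fn1 were Bmper, the gene of a secreted BMP regulator, at 0.28, the semaphorin receptor gene Plxna3 at 0.30 and Kank1, an adhesion-linked cytoskeletal gene, at 0.34, where the median gene was at 1.11. Bmper had 37.7 CPM in KPC469 against 2.68 to 7.61 CPM in the other lines. Nearest to Thbs1 were Pla2g7 at 0.54, Tmcc2 at 0.55 and Zfp469 at 0.59, and all 3 were highest in KPC469.

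Nearest to Sparc were Olfml2b, a secreted olfactomedin-domain gene, at 0.39, Zfp532 at 0.45 and the G protein subunit gene Gnb4 at 0.49. All 3 were highest in KPC469 and lowest in KPC490, and Olfml2b had 74.1 and 5.75 CPM in these lines. For Tnc they were the serotonin receptor gene Htr1b at 0.45, the adhesion receptor gene Adgrf5 at 0.55 and Syt7, a synaptotagmin gene, at 0.62, each highest in KPC490 and lowest in KPC142. Mgp had Ifitm1 at 0.48, the amino acid transporter gene Slc7a2 at 0.66 and Islr at 0.71, all with their highest level in KPC469, where Slc7a2 had 151.6 CPM against 0.581 to 1.68 CPM elsewhere.

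Nid1 had the smallest differences: Ubr1, an N-end rule ubiquitin ligase gene, at 0.15, Depdc7 at 0.16 and the polarity gene Pard6b at 0.20, each lowest in KPC469. Nid2 had the largest ones, Ifi203 at 0.89 and Myo5c and Bche at 1.42, each highest in KPC850 and lowest in KPC142. The median gene likewise lay closer to Nid1, at 0.78, than to Nid2, at 2.73. The difference grows with a member's own range, so it does not rank members by how well they were matched. Ifi203 had 41.2 CPM in KPC850 and 22.0 in KPC490, while Nid2 had 26.6 and 2.27 CPM there.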

How the data were processed

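RNA of 6 KPC lines was measured with 1 library per line, made with a stranded mRNA kit per the labels' protocols. Per the submitters' processing notes, reads were handled with Trimmomatic 0.36, STAR 2.7.10b and RSEM 1.3.3 on the build GRCm39. The annotation release and the strand setting of the counting are not given in the sources used here. The values the authors deposited are expected counts of 56953 genes, the estimates RSEM makes when it shares out reads that fit several transcripts. Of a library's values, 5.28% to 5.66% had a fractional part, and all were rounded to whole numbers.

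The labels put no line in an infiltration class, so no group was formed, no contrast was tested and no test of differential expression was run. Counts were scaled to CPM on library totals adjusted by TMM factors of edgeR 4.0.16 in R 4.3.3, computed over the 11531 genes that filterByExpr keeps. A line with 0 counts of a gene entered a ratio at a floor of 3 counts. Intervals are exact at 95%, Poisson for a level, conditional binomial for a ratio and Clopper-Pearson for a share, and cover counting error only. Likeness of patterns used log2 CPM with a prior count of 2. Symbols came from GENCODE vM21, which matched 52029 identifiers, and lengths are those of its longest transcript of a gene. The calculations were tested on simulated data.

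The members and the 5 gene lists were chosen with earlier results of these data known. The named genes are all 10 members, up to 4 genes per list with at least 10 CPM in a line and the largest ratio, and the 3 genes nearest in pattern to each member with at least 10 CPM in a line and a 4-fold ratio. A gene of the lists is not reported here and was left out of its list's counts. Other genes named were chosen after their values were seen. Alternatives were DESeq2 1.42.0 size factors, library totals alone, unrounded counts, another floor, other level filters and each line left out.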

Additional observations from a re-analysis of the deposited data

Results flagged for a closer look

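Among the 10 matrix glycoprotein genes and the 20 named genes of the lists, 3 had a line far from the others in log2 CPM, its gap to the nearest line being more than 0.625 of the whole range over the 6 lines. By chance this cut marks about 1 in 20 sets of 6 normal values that were not selected. The 20 list genes were picked for large ratios, so that rate does not apply here. Fn1 in KPC469 (2567 CPM) had a gap of 0.644 of the range, Mgp in KPC469 (29.8 CPM) a gap of 1, with the other 5 lines at 0 counts, and Smad7 in KPC180 (95.0 CPM) a gap of 0.768. The lines are not replicates of a group, so these values describe lines. The cause of these gaps was not tested.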

How the results depend on the processing

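Of the 7 members with a 4-fold range, the count was 7 with DESeq2 size factors, library totals alone, unrounded counts or a floor of 1 count. With each line left out in turn it was 4 to 7, the lowest without KPC469, and the share of all genes was 11.5% to 14.3%. Among genes kept by filterByExpr the count was 4, because that filter removes Tnc, Mgp and Nid2, and it was 9 when 1 count was enough. Other scalings and unrounded counts moved no member's ratio by more than 1.02 times. With a floor of 1 count the lower bounds were 40.4 for Thbs2, 491.1 for Mgp and 444.6 for Nid2. No paired analysis was possible because the labels give no groups and no replicate numbers. Depth limits the genes near 0: Postn, Thbs2, Nid2 in most lines and Fbn1 in KPC850.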
